A study of Mus musculus with 30 samples.

Results

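The 10 genes described here encode enzymes that break down the branched-chain amino acids leucine, isoleucine and valine, and the kinase that holds that pathway in check: Bcat1, Bcat2, Bckdha, Bckdhb, Bckdk, Dbt, Dld, Ivd, Mccc1 and Mccc2. They were chosen by name from the 55487 genes of a count table. The rule uses no measured value, but earlier results of these data were known when it was made. All 10 passed the filter on low counts that left 15907 genes for testing. The cells were C2C12 myotubes, which form by fusion from a mouse myoblast line of wild-type genotype. In all 5 groups the cells were differentiated for 4 days in low glucose medium with 2% horse serum and then treated for 4 days. The 2% HS group stayed in 2% horse serum and received no compound. The SD group was deprived of serum and received no compound, the MET group was deprived of serum with 100 nM metformin, the LEU group was deprived of serum with 500 nM leucine, and the MET+LEU group was deprived of serum with 100 nM metformin and 500 nM leucine. Each group had 6 libraries, all from a single cell line. LEU and MET+LEU were the groups that received extra leucine, a substrate of this pathway. The leucine already in the medium of all groups is not given in the sources used here.

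The pathway has a fixed order. An aminotransferase, BCAT1 in the cytosol or BCAT2 in mitochondria, moves the amino group of a branched-chain amino acid to 2-oxoglutarate. The resulting keto acid is then oxidised by the mitochondrial branched-chain keto acid dehydrogenase, which is built from E1 (BCKDHA and BCKDHB), E2 (DBT) and E3 (DLD) and is switched off when the kinase BCKDK phosphorylates E1. Leucine alone continues through isovaleryl-CoA dehydrogenase (IVD) and the biotin enzyme methylcrotonyl-CoA carboxylase (MCCC1 and MCCC2), and skeletal muscle is known as a main site of the first, transaminating step.

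Libraries held between 12784960 and 19604103 counts on genes. The library MET+LEU replicate 6 stood apart, with 5.85% of its counts on nuclear and 7.64% on mitochondrial ribosomal RNA genes, against at most 1.96% and 0.760% in any other library. Calls of members that were lost without it are named, while ranges, means and intervals include it. Levels between groups are in CPM, counts scaled to the size of each library, after TMM scaling, which puts libraries on a common scale from genes that differ least. In CPM this library was the lowest of MET+LEU for Bcat2, Bckdha, Bckdhb, Bckdk and Ivd. It was the highest for Dbt, Dld and Mccc2. Levels between genes are in TPM, which also divides by exon length. A gene was called where edgeR's quasi-likelihood test gave a Benjamini-Hochberg adjusted p under 0.05 over all 15907 genes. The 10 myotube markers were all expressed, and they summed to between 12136.6 and 15370.3 CPM in every library, whereas the 4 adipocyte markers summed to at most 0.229 CPM and the 3 endothelial markers to at most 0.770 CPM. Of the 4 macrophage markers 1, Cd68, was high enough to be tested, and their sum reached at most 4.43 CPM.

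Across the 10 genes the clearest difference was in Dld, which encodes the E3 subunit and which rose 1.25-fold in MET+LEU vs. SD. Its libraries did not overlap in CPM, as for 5.34% of all tested genes, but did overlap in TPM. In that comparison 2 of the 10 were called, against 18.4% of all tested genes. Ivd, the dehydrogenase of the leucine branch, was the only member called in SD vs. 2% HS, against 27.8% of all tested genes, and it fell to 0.842 of its level. Bcat1, the cytosolic aminotransferase, fell to 0.839 of its SD level in MET+LEU, a call that was lost without SD replicate 5 (adjusted p = 0.0719). Its lowest mean levels were in LEU and MET+LEU, but neither was called vs. MET (adjusted p of 0.511 and 0.165), and LEU was not called vs. SD (adjusted p = 0.137). Bcat2, Bckdha, Mccc1 and Mccc2 were not called between any of the 10 pairs of groups.

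The stretches of DNA around an annotated start of Dld and of Bcat1, the members that rose and fell in MET+LEU vs. SD, are shown as annotated promoters of those genes. Each is 1 of 12 RefSeq promoter entries that 9 of the 10 members have, and runs from 250 bases before to 50 bases after a RefSeq transcription start, on the minus strand of GRCm38.p6, and is written in the direction of the gene. The Dld window is chr12:31351422-31351721, and the capitals mark a match to the NRF1 motif. The match lies in the 50 bases after the transcription start, not before it. The Bcat1 window is chr6:145076108-145076407 (41.0% GC), in which none of the 4 motifs searched was found. It is the entry that holds the 5' end of the annotated gene. Bcat1 has another entry, chr6:145048763-145049062 (58.7% GC), which is not shown and in which none of the motifs was found.
Dld: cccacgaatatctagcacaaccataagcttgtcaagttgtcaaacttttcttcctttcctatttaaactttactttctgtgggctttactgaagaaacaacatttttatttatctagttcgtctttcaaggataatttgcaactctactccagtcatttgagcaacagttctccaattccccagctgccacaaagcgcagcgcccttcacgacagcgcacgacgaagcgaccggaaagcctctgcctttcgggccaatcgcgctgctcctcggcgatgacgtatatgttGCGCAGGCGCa
Bcat1: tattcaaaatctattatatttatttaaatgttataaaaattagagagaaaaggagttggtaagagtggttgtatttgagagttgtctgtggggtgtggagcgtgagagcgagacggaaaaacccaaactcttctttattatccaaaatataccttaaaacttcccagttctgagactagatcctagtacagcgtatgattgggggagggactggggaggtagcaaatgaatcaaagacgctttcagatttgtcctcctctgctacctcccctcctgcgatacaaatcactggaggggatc

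The motifs were searched on both strands by their letters, and no entry held matches to more than 1 of them: the GC box CCGCCC, the C/EBP-ATF element TGATGNAA, the E box CACGTG and the NRF1 site, GCGCA and GCGC with any 1 base between. Of 32851 RefSeq promoters of this length, 35.7% held the GC box, 3.97% the C/EBP-ATF element, 7.15% the E box and 4.6% the NRF1 site. In the 12 entries, the NRF1 match stood only in Dld, a GC box in Bckdhb (3 matches) and Mccc1 (1 match), and an E box in Mccc2 (1 match). Dbt had no entry. The matches are descriptions of sequence and not of binding.

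Per exon length the members spanned a wide range. Dld was the highest, with a mean of 124.9 TPM over the 30 libraries and a range of 101.6 to 142.6 TPM. Bckdha followed at 51.5 TPM and Bckdk at 31.8 TPM. Bcat2, Dbt, Ivd and Mccc2 lay close together, at 20.5, 20.4, 18.2 and 15.4 TPM. Mccc1 and Bcat1 were lower, at 5.66 and 4.91 TPM, and Bckdhb was the lowest at 1.71 TPM. The order was the same with RPKM, which divides the same counts by the same exon lengths and so cannot check those lengths.

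**Figure D1:**
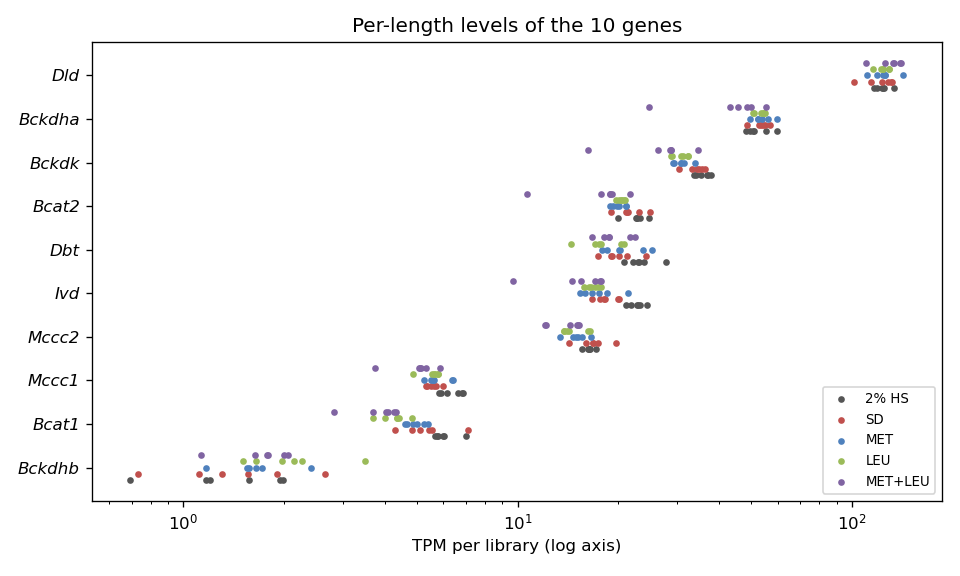
Level per exon length (TPM, log axis) of the 10 genes in each of the 30 libraries, coloured by group. Dld lies above all other members in every library, between 101.6 and 142.6 TPM, and Bckdhb lies below all others at 0.694 to 3.49 TPM.

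Subunits that work in 1 enzyme did not have like levels per exon length. The level of Bckdha was a median of 37.9 times that of Bckdhb per exon length in 2% HS (range 25.5 to 69.6 over 6 libraries), 38.4 times in SD (range 18.4 to 77.8), the highest median, and 25.6 times in LEU (range 15.5 to 33.6), the lowest. Bckdhb had between 5 and 30 counts per library, so this ratio carries a large counting error. Dld stood at a median of 5.40 times Dbt in 2% HS, the lowest group, 6.62 times in MET+LEU and 7.02 times in LEU, the highest, and it also serves other complexes. The carboxylase subunit Mccc1 stood at a median of 0.387 of the level of Mccc2 in 2% HS, the highest group, 0.345 in MET+LEU and 0.331 in SD, the lowest. This ratio depends on the exon length used, the union over all annotated transcripts, which was 10952 bases for Mccc1 and 2802 for Mccc2. In CPM, which does not divide by length, Mccc1 was the higher, with means of 20.6 and 13.5 in 2% HS. The mitochondrial aminotransferase gene was the higher of its pair, since Bcat1 stood at a median of 0.258 of Bcat2 in 2% HS, the highest group, and 0.214 in LEU, the lowest. The size of this gap also depends on the exon length used, 9322 bases for Bcat1 and 3900 for Bcat2. In CPM the gap was smaller, with means of 16.6 for Bcat1 and 26.1 for Bcat2 in 2% HS.

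**Figure D2:**
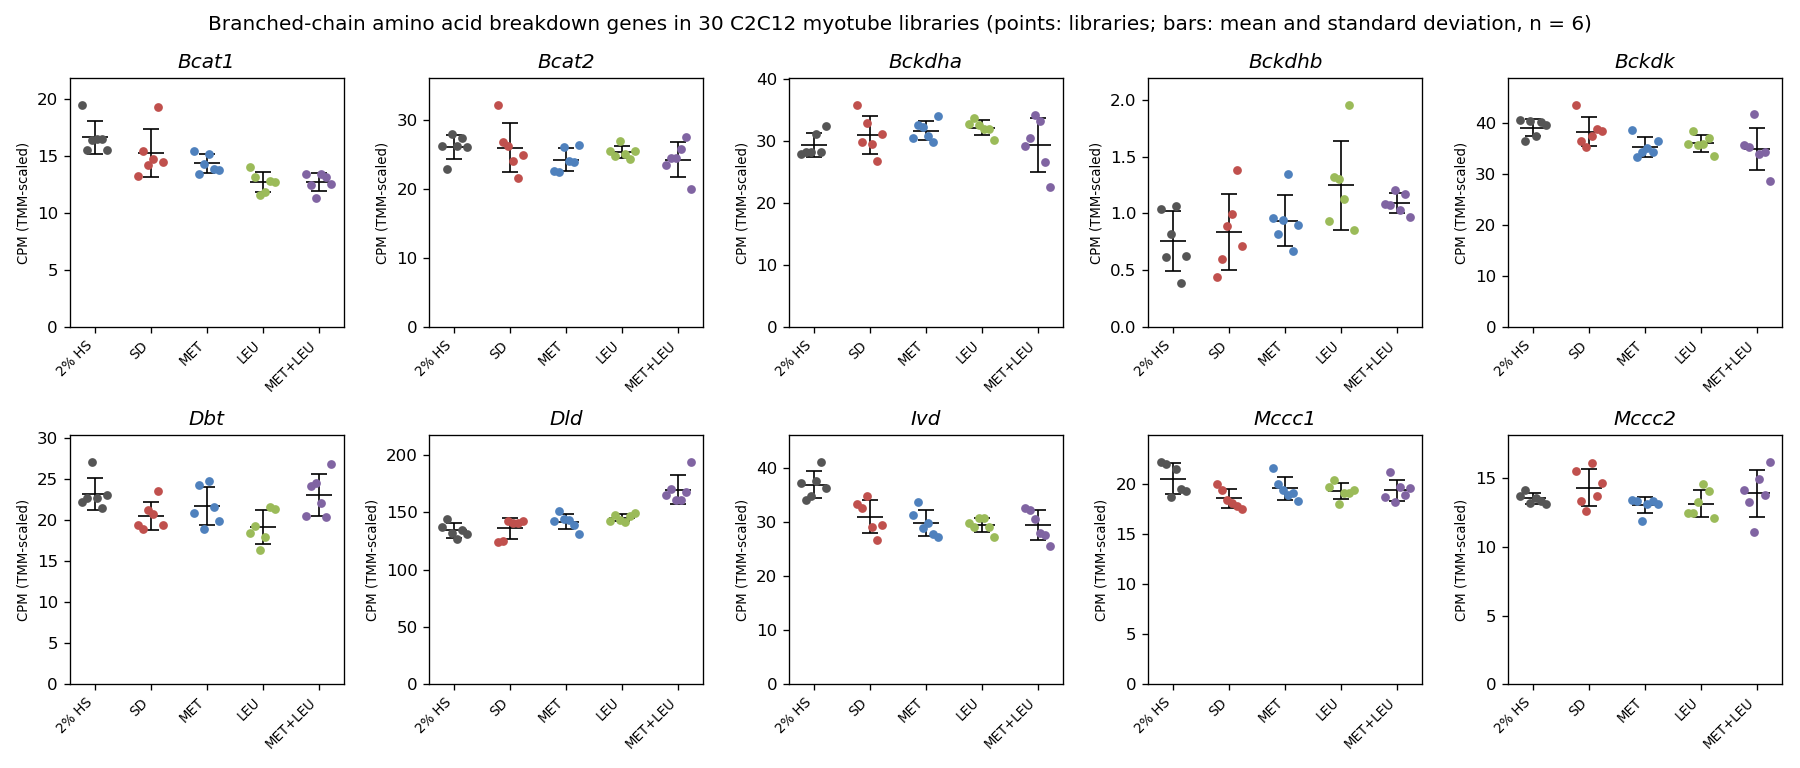
CPM after TMM scaling of each of the 10 genes in the 5 groups, with axes that start at 0 (points, libraries; bars, mean and standard deviation, n = 6 per group). In the Dld panel the 6 MET+LEU libraries, 161.2 to 194.1 CPM, lie above every library of the other groups, and in the Ivd panel 2% HS has the highest mean.

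Bcat1 (ENSMUSG00000030268, chr6:144993835-145076184, minus strand, GRCm38) encodes the cytosolic aminotransferase, an isoform that skeletal muscle fibers express little. In 2% HS the libraries ran from 15.5 to 19.4 CPM with a median of 16.4. In SD they ran from 13.2 to 19.2 CPM with a median of 14.6, and in MET from 13.4 to 15.4 CPM with a median of 14.1. LEU ran from 11.6 to 14.01 CPM with a median of 12.7, and MET+LEU from 11.3 to 13.4 CPM with a median of 12.8. All libraries of MET, LEU and MET+LEU lay below all of 2% HS, while SD overlapped 2% HS through SD replicate 5 alone. Against 2% HS the libraries did not overlap for 20.2% of all genes with MET, 18.6% with LEU and 21% with MET+LEU. Bcat1 fell in MET+LEU vs. SD by 0.25 on the log2 scale (SE 0.08, adjusted p = 0.0175), with all 6 libraries below the SD mean. This call was lost without SD replicate 5 (-0.19, adjusted p = 0.0719) and in a model of only the 2 groups compared (-0.25, adjusted p = 0.0845). LEU vs. SD gave a similar value, -0.26 (SE 0.08, 95% interval -0.41 to -0.10), which did not pass over all genes (adjusted p = 0.137). Against 2% HS it fell by 0.39 in MET+LEU (SE 0.08, adjusted p = 5.5e-05) and by 0.39 in LEU (SE 0.08, adjusted p = 7.1e-05). MET vs. 2% HS gave -0.22 (SE 0.08, adjusted p = 0.0230), a call that was lost without 2% HS replicate 1 (-0.16, adjusted p = 0.0969), without MET replicate 2 (-0.19, adjusted p = 0.0550), and with genes kept at more than 5 counts in total (-0.20, adjusted p = 0.0537). These comparisons share the 2% HS or the SD libraries. In bulk RNA, less transcript per cell and fewer cells of a kind that expresses the gene cannot be told apart, here and for every gene below.

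Bcat2 (ENSMUSG00000030826, chr7:45570153-45589711, plus strand) encodes the mitochondrial aminotransferase, the main form in muscle. The group means lay between 24.2 ± 1.64 CPM in MET and 26.1 ± 1.77 CPM in 2% HS (mean ± standard deviation, n = 6 each). The groups overlapped in every comparison. The 95% interval of the log2 fold change was -0.14 to 0.13 in SD vs. 2% HS and -0.24 to 0.03 in MET+LEU vs. SD.

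Of the dehydrogenase subunits, Bckdha (ENSMUSG00000060376, chr7:25629946-25658981, minus strand) encodes the E1 alpha chain that the kinase phosphorylates. Its means lay between 29.4 ± 1.97 CPM in 2% HS and 32.2 ± 1.15 CPM in LEU (mean ± standard deviation, n = 6 each), with overlap throughout and a 95% interval of -0.21 to 0.06 for the log2 fold change in MET+LEU vs. SD. Its exons share 1171 bases with B3gnt8 on the opposite strand, which had a mean of 90.1 counts per library against 477.6 for Bckdha, and the strand setting of the counting is not given in the sources used here.

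Bckdhb (ENSMUSG00000032263, chr9:83925145-84124240, plus strand) encodes the E1 beta chain and was measured with the least precision. Libraries ran from 0.385 to 1.06 CPM in 2% HS, from 0.437 to 1.39 CPM in SD and from 0.853 to 1.95 CPM in LEU. LEU lay at the upper end but overlapped both other groups. LEU vs. 2% HS gave a log2 fold change of 0.67 (SE 0.26, adjusted p = 0.0459), which DESeq2 did not call (0.68, adjusted p = 0.0583). It was also lost with genes kept at more than 5 counts in total (adjusted p = 0.0739), with an offset for GC content (adjusted p = 0.0505), without each of 2% HS replicates 2, 3, 5 and 6 (adjusted p of 0.0884, 0.0602, 0.120 and 0.0915) and without each of LEU replicates 2, 3, 4 and 5 (adjusted p of 0.0725, 0.0712, 0.0529 and 0.176). LEU vs. SD gave 0.59 (SE 0.26, 95% interval 0.09 to 1.10, adjusted p = 0.396).

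Dbt (ENSMUSG00000000340, chr3:116513070-116549981, plus strand) encodes the E2 core that carries the lipoyl arm. Libraries ran from 21.4 to 27.02 CPM in 2% HS (median 22.6) and from 18.9 to 23.5 CPM in SD (median 20.004). LEU was the lowest group, from 16.3 to 21.6 CPM (median 18.8), and MET+LEU ran from 20.4 to 26.8 CPM (median 23.1). LEU and MET+LEU overlapped between 20.4 and 21.6 CPM, and SD overlapped 2% HS. Dbt rose in MET+LEU vs. LEU by 0.27 on the log2 scale (SE 0.08, adjusted p = 0.0292) and fell in LEU vs. 2% HS by 0.27 (SE 0.08, adjusted p = 0.00442). The rise was lost with an offset for GC content (0.20, adjusted p = 0.113), without MET+LEU replicate 6 (0.21, adjusted p = 0.115), and in a model of only the 2 groups (0.25, adjusted p = 0.0897). In SD vs. 2% HS Dbt gave -0.18 (SE 0.08, adjusted p = 0.0737), and it passed without SD replicate 5 (-0.22, adjusted p = 0.0277) and without MET+LEU replicate 6 (-0.18, adjusted p = 0.0448). The rise in MET+LEU vs. LEU was also lost without LEU replicate 1, 2, 3 or 4 and without MET+LEU replicate 2, with adjusted p of 0.0737, 0.0575, 0.124, 0.0826 and 0.0666.

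Dld (ENSMUSG00000020664, chr12:31331277-31351453, minus strand) encodes dihydrolipoamide dehydrogenase, the E3 subunit that the branched-chain complex shares with pyruvate and 2-oxoglutarate dehydrogenase and with the glycine cleavage system. Libraries ran from 126.6 to 144.6 CPM in 2% HS (median 133.3) and from 124.0 to 142.8 CPM in SD (median 140.9). MET ran from 131.1 to 151.0 CPM (median 143.1) and LEU from 141.9 to 149.4 CPM (median 145.3). MET+LEU ran from 161.2 to 194.1 CPM (median 166.3), above every library of the 4 other groups, while the other groups overlapped one another. The highest value, 194.1 CPM, was in MET+LEU replicate 6, and the next was 170.5 CPM. In TPM the MET+LEU mean was also the highest, 130.4, but its libraries overlapped each other group. They ran from 110.2 to 140.4 TPM, SD from 101.6 to 132.1 TPM and LEU from 115.4 to 129.55 TPM. MET+LEU replicate 6 was the lowest of its group in TPM, at 110.2.

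Dld rose in MET+LEU vs. SD by 0.32 on the log2 scale (SE 0.04, adjusted p = 6.1e-07). It rose in MET+LEU by 0.22 vs. LEU (SE 0.04, adjusted p = 0.00112), by 0.26 vs. MET (SE 0.04, adjusted p = 8.9e-05) and by 0.34 vs. 2% HS (SE 0.04, adjusted p = 5.5e-09). Without MET+LEU replicate 6 these values were 0.28 vs. SD, 0.18 vs. LEU, 0.21 vs. MET and 0.29 vs. 2% HS, and all 4 were called. With an offset for GC content, the rise vs. LEU was 0.15 (adjusted p = 0.00656). LEU vs. 2% HS gave 0.12 (SE 0.04, adjusted p = 0.0337), which was lost without each of 2% HS replicates 3, 4 and 6 and LEU replicates 2, 5 and 6 (adjusted p of 0.0607, 0.0906, 0.0676, 0.0543, 0.0568 and 0.0692). Neither agent alone gave a call vs. SD, at 0.06 (95% interval -0.02 to 0.15) for MET and 0.10 (95% interval 0.01 to 0.18) for LEU. The interaction, the excess of MET+LEU over the sum of both single effects, was 0.16 (SE 0.06, 95% interval 0.04 to 0.28), with an unadjusted p of 0.00931 and an adjusted p of 0.376.

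Bckdk (ENSMUSG00000030802, chr7:127904082-127910221, plus strand) encodes the kinase that inactivates the complex. Libraries ran from 36.5 to 40.6 CPM in 2% HS (median 39.9), from 35.3 to 43.6 CPM in SD (median 38.0) and from 28.7 to 41.7 CPM in MET+LEU (median 34.8). The groups overlapped. Bckdk fell in MET+LEU vs. 2% HS by 0.16 (SE 0.06, adjusted p = 0.0222), a call that was lost without MET+LEU replicate 6 (-0.12, adjusted p = 0.0656). MET vs. 2% HS gave -0.14 (SE 0.06, adjusted p = 0.0472), which was near the threshold. It was lost with DESeq2 (adjusted p = 0.0652), with DESeq2 size factors (adjusted p = 0.0513) and with genes kept at more than 5 counts in total (adjusted p = 0.0890), and it passed in 11 of the 30 fits that left out 1 library each (adjusted p up to 0.112, without MET replicate 2). MET+LEU vs. SD gave -0.13 (SE 0.06, adjusted p = 0.101), and it passed without MET+LEU replicate 3 (-0.19, adjusted p = 0.0135). The opposing phosphatase Ppm1k, which switches the complex on, gave -0.17 (SE 0.09, adjusted p = 0.157) in SD vs. 2% HS and 0.21 (SE 0.09, adjusted p = 0.0911) in MET+LEU vs. SD, where leaving out MET+LEU replicate 1 gave 0.26 (adjusted p = 0.0277). Per exon length Bckdk stood at a median of 6.02 times Ppm1k in 2% HS (range 5.06 to 7.16), 6.21 times in SD (range 5.73 to 8.22), 6.49 times in LEU (range 5.36 to 7.17) and 4.92 times in MET+LEU (range 3.82 to 6.76), with overlap between the groups.

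In the leucine branch, Ivd (ENSMUSG00000027332, chr2:118861954-118882909, plus strand) encodes isovaleryl-CoA dehydrogenase. Libraries ran from 34.2 to 41.2 CPM in 2% HS (median 36.9) and from 26.7 to 34.8 CPM in SD (median 31.0). MET ran from 27.2 to 33.8 CPM (median 29.4), LEU from 27.2 to 30.8 CPM (median 29.5) and MET+LEU from 25.5 to 32.6 CPM (median 29.3). All libraries of MET, LEU and MET+LEU lay below all of 2% HS, and SD overlapped 2% HS through SD replicate 3 at 34.8 CPM. Ivd fell in SD vs. 2% HS by 0.25 (SE 0.06, adjusted p = 0.00176), with all 6 SD libraries below the 2% HS mean. It fell vs. 2% HS by 0.31 with MET (SE 0.06, adjusted p = 9.3e-05), by 0.33 with LEU (SE 0.06, adjusted p = 5.2e-05) and by 0.32 with both (SE 0.06, adjusted p = 4.1e-05), comparisons that share the 2% HS libraries. Among the serum-deprived groups no difference passed, and MET+LEU vs. SD gave -0.07 with a 95% interval of -0.20 to 0.05.

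Mccc1 (ENSMUSG00000027709, chr3:35959312-36000678, minus strand) and Mccc2 (ENSMUSG00000021646, chr13:99948530-100015639, minus strand) encode the biotin-carrying and the carboxyltransferase subunit of methylcrotonyl-CoA carboxylase. The Mccc1 means lay between 18.6 ± 0.957 CPM in SD and 20.6 ± 1.54 CPM in 2% HS (mean ± standard deviation, n = 6 each). Mccc1 in SD vs. 2% HS gave -0.14 (SE 0.06, adjusted p = 0.0666), with all 6 SD libraries below the 2% HS mean, and it passed with upper-quartile normalization (-0.16, adjusted p = 0.0438), and without 2% HS replicate 3 or 6 or SD replicate 1 (adjusted p of 0.0317, 0.0461 and 0.0399). The Mccc2 means lay between 13.1 ± 0.594 CPM in MET and 14.3 ± 1.36 CPM in SD (mean ± standard deviation, n = 6 each), and its 95% interval in MET+LEU vs. SD was -0.19 to 0.10. Both genes overlapped between groups in every comparison.

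The order of the 5 groups could be told apart for few neighbours. For Dld, MET+LEU stood above LEU (adjusted p = 0.00112), and LEU, MET, SD and 2% HS followed without a called difference between neighbours. For Ivd, 2% HS stood above SD (adjusted p = 0.00176), and SD, MET, LEU and MET+LEU followed without one. For the 8 other members no neighbours in the order differed by the test. Of the 10 pairs of groups, 5 were called for Dld, 4 for Bcat1, 4 for Ivd, 2 for Bckdk, 2 for Dbt, 1 for Bckdhb and 0 for each of the other 4.

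Of the 10 genes, in SD vs. 2% HS 0 rose and 1 fell, against 13.9% of all tested genes called as lower. Without SD replicate 5 the count was 3, with Bcat1 (-0.21, adjusted p = 0.0234) and Dbt as well. None of the 10 separated its libraries in that comparison, against 13.6% of all genes. The median log2 fold change of the 10 was -0.015, with 0.0028 over all tested genes.

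In MET vs. SD 0 of 10 were called by edgeR, against 0.157% of all genes, 1 had an unadjusted p under 0.05 (Bckdk, -0.12, SE 0.06) against 10% of all genes, and DESeq2 called 0. In LEU vs. SD 0 of 10 were called by edgeR, against 0.553%, and DESeq2 called 0. There 3 had an unadjusted p under 0.05 (Bcat1, Bckdhb and Dld), against 9.98% of all genes. For the 9 members other than Bckdhb the 95% intervals in LEU vs. SD lay between -0.41 and 0.18 on the log2 scale.

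In MET+LEU vs. SD 1 of 10 rose (Dld) and 1 fell (Bcat1), against 10.6% of all genes called as higher and 7.8% as lower. Dld alone separated its libraries, against 5.34% of all genes. There 4 had an unadjusted p under 0.05 (Bcat1, Bckdk, Dbt and Dld), against 31.2% of all genes. The median log2 fold change of the 10 was -0.060, with -0.0050 over all tested genes. Compared with 2% HS, MET+LEU had 1 that rose (Dld) and 3 that fell (Bcat1, Bckdk and Ivd), against 42.3% of all genes called in either direction. Bcat1, Dld and Ivd separated their libraries there, against 21% of all genes. Between MET+LEU and LEU 2 rose (Dbt and Dld), against 4.61% of all genes called as higher and 6.28% called in either direction, and Dld alone did not overlap, against 3.6%. Between MET+LEU and MET 1 rose (Dld), against 5.54% called as higher and 8.69% in either direction, and Bcat1 and Dld did not overlap, against 3.77%. Of all genes called in MET+LEU vs. LEU, 733 were higher and 266 lower, and with upper-quartile normalization 417 were higher and 356 lower. In MET vs. 2% HS 3 of 10 fell, against 17.5% of all genes called as lower and 35% in either direction, and in LEU vs. 2% HS 2 rose and 3 fell, against 29.7% called in either direction. In LEU vs. MET 0 of 10 were called by edgeR, against 0.0754% of all genes, and 2 had an unadjusted p under 0.05 (Bcat1 and Dbt), against 8.68%. The interaction of MET and LEU was called for 0 of 10 by edgeR, against 0.0503%, 2 had an unadjusted p under 0.05 (Dld and Mccc2) against 8.73% of all genes, and DESeq2 called 0. No member was called in one direction by serum deprivation and in the other by MET+LEU vs. SD, which 3.09% of all tested genes were.

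**Figure D3:**
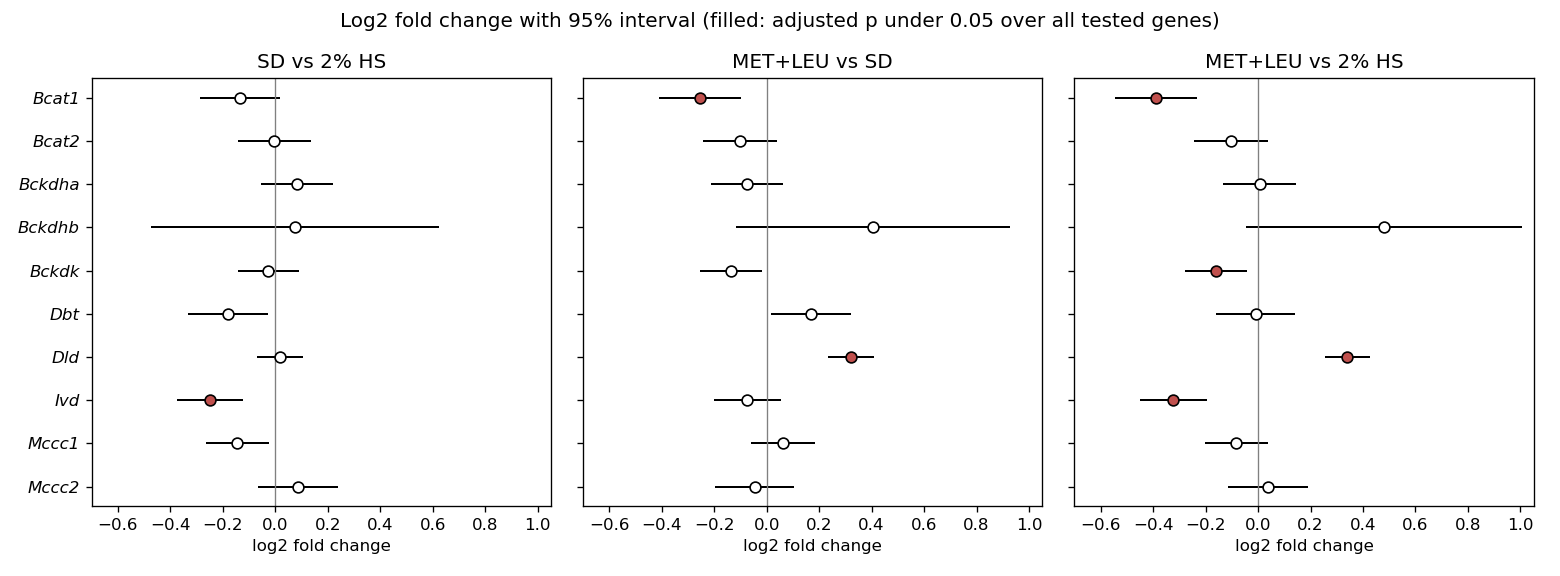
Log2 fold change of the 10 genes with its 95% interval for SD vs. 2% HS, for MET+LEU vs. SD and for MET+LEU vs. 2% HS (filled points, adjusted p under 0.05 by edgeR over all 15907 genes). Ivd alone is filled on the left, Dld and Bcat1 in the middle, and Bcat1, Bckdk, Dld and Ivd on the right, and the interval of Bckdhb is the widest in each.

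MET+LEU vs. SD differed by GC content over all genes, and the members lay at different points of that trend. The median log2 fold change was 0.07 in the lowest of 5 equal bins of tested genes by GC content and -0.10 in the highest. Dld (40.6% GC) and Dbt (42.1%) were in the lowest bin, Bcat1 (47.2%) in the middle one and Bckdha (57.9%) in the highest. With an offset for GC content, added after seeing the data, Dld rose in MET+LEU vs. SD by 0.23 (SE 0.03, adjusted p = 1.6e-06) and Bcat1 fell by 0.28 (SE 0.08, adjusted p = 0.00745). Both were called, while Dbt moved from 0.17 to 0.09 (adjusted p = 0.445).

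**Figure D4:**
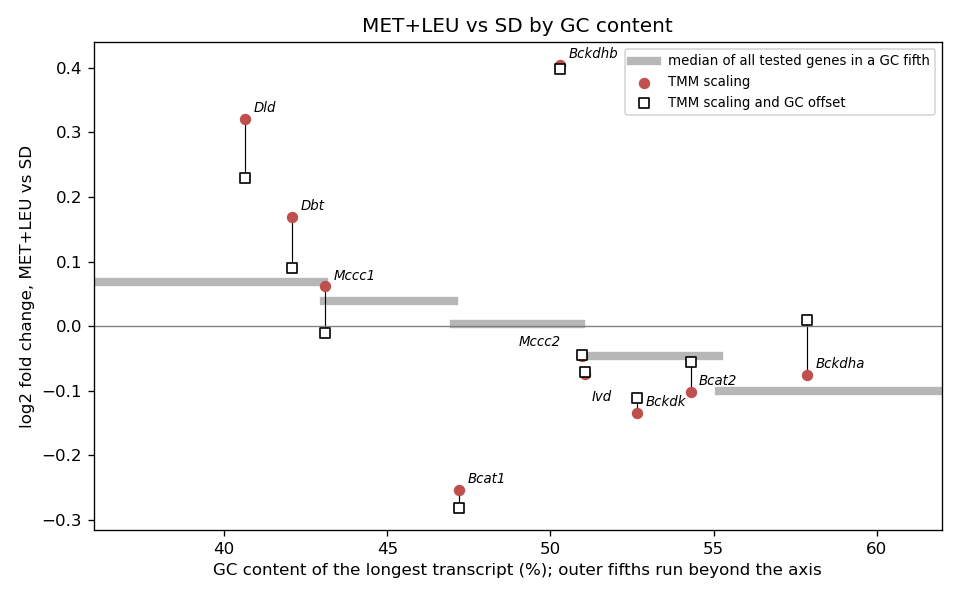
Log2 fold change in MET+LEU vs. SD against the GC content (%) of each member's longest transcript, with TMM scaling alone (circles) and with a GC offset as well (squares). Grey bars give the median of all tested genes in each of 5 bins of GC content, from 0.07 down to -0.10. Dld moves from 0.32 to 0.23 and Bcat1 from -0.25 to -0.28.

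Genes around the pathway were read from lists of further steps, transport and control. The counts of each list stand beside shares of all tested genes. In SD vs. 2% HS these were 13.9% called as higher and 13.9% as lower, and in MET+LEU vs. SD 10.6% as higher and 7.8% as lower. The balance in MET+LEU vs. SD depended on the scaling. With TMM 1690 genes were higher and 1241 lower, and with upper-quartile normalization 1446 were higher and 1556 lower. Of the transport genes, 5 of 6 were tested, and in SD vs. 2% HS 3 fell, against 13.9% of all genes, and 1 rose (median log2 fold change -0.16). Slc7a5, the light chain of the plasma membrane exchanger that brings leucine into the cell, ran from 185.6 to 203.2 CPM in 2% HS, from 129.96 to 153.4 CPM in SD and from 100.0 to 115.4 CPM in MET+LEU. The 3 groups did not overlap. Slc7a5 fell by 0.50 in SD vs. 2% HS (SE 0.04, adjusted p = 2.3e-14) and again by 0.31 in MET+LEU vs. SD (SE 0.04, adjusted p = 6.1e-07). Its heavy chain partner Slc3a2 fell by 0.23 (SE 0.04, adjusted p = 5.4e-06) and by 0.17 (SE 0.04, adjusted p = 0.00135). Slc43a2, another leucine transporter, fell by 0.16 in SD vs. 2% HS (SE 0.04, adjusted p = 0.00503).

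Slc25a44, the carrier that takes branched-chain amino acids into mitochondria, ran from 31.6 to 37.0 CPM in 2% HS, from 36.9 to 41.3 CPM in SD and from 33.2 to 36.6 CPM in MET+LEU. It rose by 0.16 in SD vs. 2% HS (SE 0.05, adjusted p = 0.00874) and fell by 0.15 in MET+LEU vs. SD (SE 0.05, adjusted p = 0.0237), where the libraries of MET+LEU and SD did not overlap. The fall was lost with the GC offset (-0.11, adjusted p = 0.0959), with genes kept at more than 5 counts in total (-0.15, adjusted p = 0.0559), and in a model of only the 2 groups (-0.14, adjusted p = 0.0823). It was also lost without SD replicate 2 (adjusted p = 0.0617) and without MET+LEU replicate 3 (adjusted p = 0.0505). With MET+LEU vs. SD 3 of the 5 transport genes fell and 0 rose (median -0.15), against 7.8% of all genes called as lower.

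Among 4 genes that control the pathway, 2 fell in SD vs. 2% HS, against 13.9% of all genes. Klf15, a transcription factor known to act on branched-chain amino acid breakdown in muscle, ran from 1.90 to 3.25 CPM in 2% HS and from 0.0714 to 1.26 CPM in SD, without overlap. It fell by 2.03 on the log2 scale (SE 0.30, adjusted p = 5.3e-07), on between 1 and 19 counts per library in SD. Against SD, MET+LEU gave 0.12 (SE 0.37, adjusted p = 0.860). Ppargc1a, a coactivator of mitochondrial genes, fell by 1.14 in SD vs. 2% HS (SE 0.12, adjusted p = 3.1e-10). For MET+LEU vs. SD 0 of the 4 were called by edgeR, 1 had an unadjusted p under 0.05 (Ppm1k), and DESeq2 called 0.

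Later steps of isoleucine and valine breakdown changed in part. Of 10 isoleucine and valine genes 3 fell in SD vs. 2% HS, against 13.9% of all genes: Aldh6a1 (-0.24, SE 0.06, adjusted p = 0.00145), which acts late in valine breakdown, the hydratase Echs1 (-0.21, SE 0.06, adjusted p = 0.00513) and the thiolase Acaa2 (-0.14, SE 0.05, adjusted p = 0.0388). The Acaa2 call was lost in 8 other settings, with adjusted p from 0.0518 to 0.108: with genes kept at more than 5 counts in total, in a model of only the 2 groups, without 2% HS replicate 1, 4 or 6 and without SD replicate 4, 5 or 6. From SD to MET+LEU 1 of the 10 rose, against 10.6% of all genes, Acadsb (0.16, SE 0.05, adjusted p = 0.0138), the dehydrogenase of the isoleucine branch, and this was lost with the GC offset (0.09, adjusted p = 0.134), in a model of only the 2 groups (0.16, adjusted p = 0.0645), and without SD replicate 1 (0.13, adjusted p = 0.0724) or 3 (0.13, adjusted p = 0.0627).

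In the propionyl-CoA steps that isoleucine and valine share, 2 of 6 fell in SD vs. 2% HS, against 13.9% of all genes, and 1 rose in MET+LEU vs. SD, against 10.6%. Without SD replicate 3 or MET+LEU replicate 5 the latter count was 2. Mmut, the methylmalonyl-CoA mutase, ran from 37.6 to 43.3 CPM in 2% HS, from 32.6 to 38.3 CPM in SD and from 38.5 to 46.4 CPM in MET+LEU. MET+LEU lay above all SD libraries, and SD overlapped 2% HS. Mmut fell by 0.21 in SD vs. 2% HS (SE 0.05, adjusted p = 0.00266) and rose by 0.31 in MET+LEU vs. SD (SE 0.05, adjusted p = 5.6e-05), or by 0.23 with the GC offset (adjusted p = 0.000883). Pcca, the alpha subunit of propionyl-CoA carboxylase, fell by 0.19 in SD vs. 2% HS (SE 0.06, adjusted p = 0.0118).

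Dld has partners in 3 other complexes, and 9 of their genes were tested. Of the 9, 2 rose in MET+LEU vs. SD, against 10.6% of all genes. Gcsh, the lipoyl-bearing H protein of the glycine cleavage system, ran from 7.99 to 10.4 CPM in SD and from 10.8 to 13.3 CPM in MET+LEU, without overlap. It rose by 0.37 (SE 0.09, adjusted p = 0.00200), or by 0.34 with the GC offset (adjusted p = 0.00389). Pdha1, the E1 alpha subunit of pyruvate dehydrogenase, rose by 0.10 (SE 0.03, adjusted p = 0.0162), which was lost with the GC offset (0.05, adjusted p = 0.201), with genes kept at more than 5 counts in total (adjusted p = 0.0582), in a model of only the 2 groups (adjusted p = 0.0807), and without SD replicate 2 or 6 or MET+LEU replicate 2 (adjusted p of 0.0648, 0.0524 and 0.0694). In SD vs. 2% HS Pdhb, its E1 beta subunit, fell by 0.15 (SE 0.04, adjusted p = 0.00180) and Dlst, the E2 of 2-oxoglutarate dehydrogenase, rose by 0.09 (SE 0.03, adjusted p = 0.0108), and without SD replicate 1 the count called there was 4. The median over the 9 was 0.0078 in that comparison and -0.0049 in MET+LEU vs. SD.

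The remaining lists fell in part in SD vs. 2% HS. Of 6 genes that pass on the amino group taken from branched-chain amino acids, 5 fell and 0 rose (median -0.29), against 13.9% of all genes called as lower. Glul, glutamine synthetase, fell by 0.53 (SE 0.03, adjusted p = 1.2e-17), the mitochondrial alanine aminotransferase Gpt2 by 0.79 (SE 0.05, adjusted p = 1.9e-16) and the aspartate aminotransferases Got1 by 0.28 (SE 0.06, adjusted p = 0.000647) and Got2 by 0.10 (SE 0.03, adjusted p = 0.0141). Glul and Gpt2 separated their libraries, and Got1 and Got2 overlapped. The Got2 call was lost with genes kept at more than 5 counts in total (adjusted p = 0.0520). Of the 6, 1 rose in MET+LEU vs. SD, Glul (0.11, SE 0.03, adjusted p = 0.0152), with overlap, and this was lost in a model of only the 2 groups (adjusted p = 0.0938) and without SD replicate 6, MET+LEU replicate 1 or MET+LEU replicate 2 (adjusted p of 0.0796, 0.0554 and 0.0637).

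Of 7 kinases and phosphatases of pyruvate dehydrogenase, the sister complex of the branched-chain enzyme, 4 fell in SD vs. 2% HS (median -0.18), against 13.9% of all genes. They were the kinases Pdk1 (-0.56, SE 0.08, adjusted p = 3.3e-06), Pdk4 (-0.49, SE 0.06, adjusted p = 2.0e-08) and Pdk2 (-0.18, SE 0.06, adjusted p = 0.0143, or 0.0616 without SD replicate 6) and the phosphatase Pdp1 (-0.26, SE 0.05, adjusted p = 7.5e-05). Of 6 biotin genes 3 fell (median -0.16), against the same 13.9%: pyruvate carboxylase Pcx (-0.52, SE 0.07, adjusted p = 6.0e-07), the biotin transporter Slc5a6 (-0.56, SE 0.10, adjusted p = 9.0e-06) and the acetyl-CoA carboxylase Acacb (-0.28, SE 0.07, adjusted p = 0.00109). From SD to MET+LEU 0 of either list were called by edgeR or by DESeq2, and 1 of the 7 and 0 of the 6 had an unadjusted p under 0.05. Without MET+LEU replicate 4 or 6 edgeR called 1 of the 7.

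**Figure D5:**
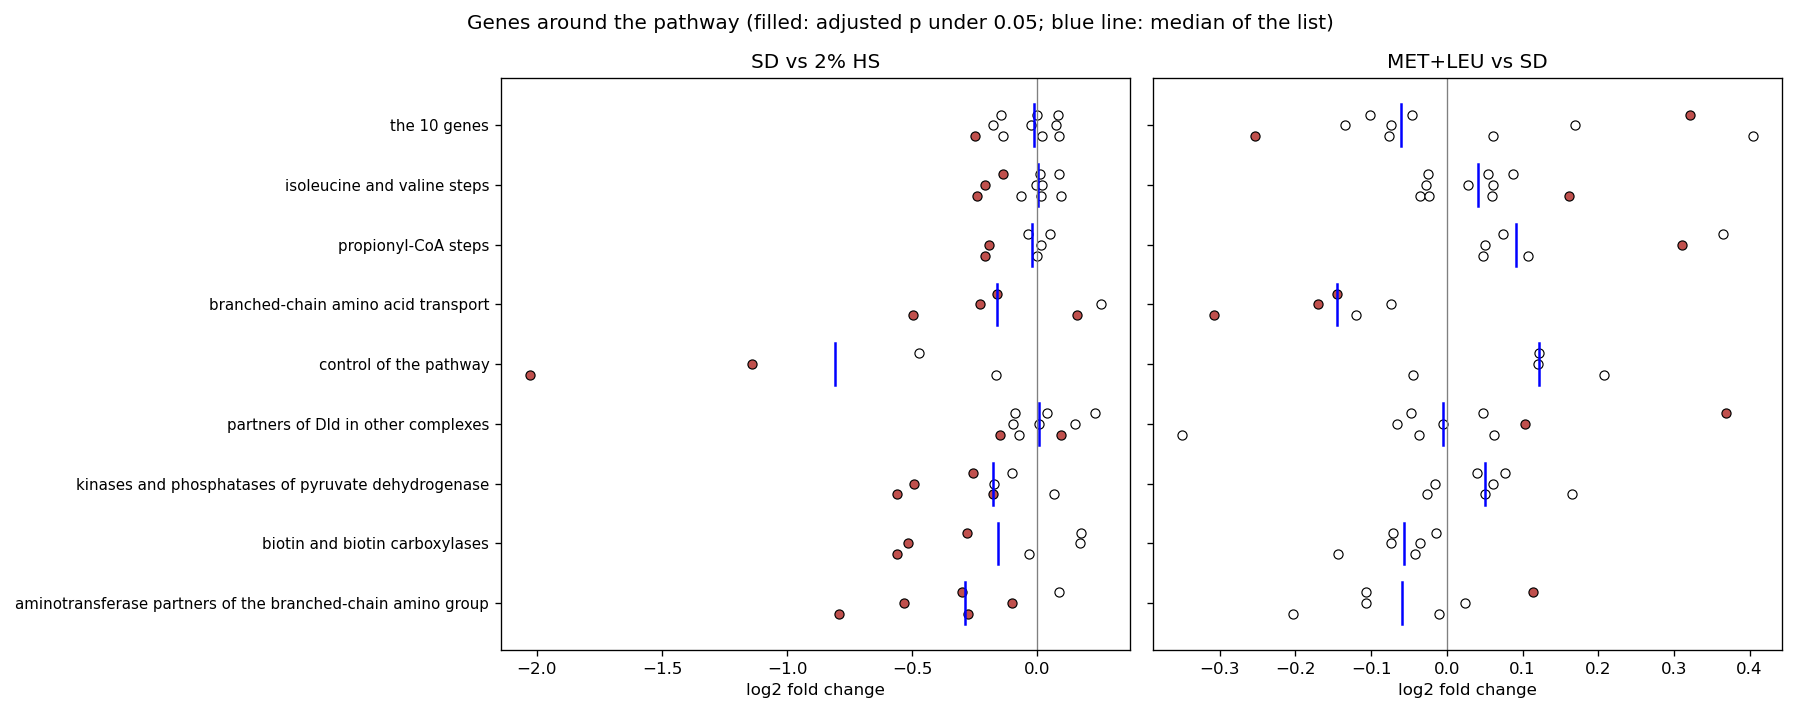
Log2 fold change of the tested genes of 8 lists around the pathway and of the 10 members, SD vs. 2% HS on the left and MET+LEU vs. SD on the right (filled points, adjusted p under 0.05 by edgeR over all genes; blue lines, median of each list). The transport median lies below 0 in both panels, at -0.16 and -0.15, and the horizontal axes of the panels differ in range.

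Markers of cycling cells and of connective tissue moved with the groups. In SD vs. 2% HS all 4 tested connective tissue markers rose, against 13.9% of all genes called as higher. The list summed to between 547.4 and 643.1 CPM in 2% HS and between 784.8 and 946.0 CPM in SD. Of the 5 listed, 1, Thy1, had a mean under 0.1 CPM in every group. In MET+LEU the list summed to between 668.5 and 755.5 CPM, below every SD library. Of the 4, 1 rose and 1 fell in MET+LEU vs. SD, against 10.6% of all genes called as higher and 7.8% as lower. Of 6 markers of proliferating myoblasts 4 fell (Mki67, Top2a, Ccnb1 and Cdk1) and 0 rose in MET+LEU vs. SD, against the same shares. Their sums ran from 316.4 to 357.1 CPM in SD and from 274.0 to 299.8 CPM in MET+LEU. In LEU vs. SD 2 of the 6 fell (Top2a and Ccnb1), against 0.321% of all genes called as lower, with sums from 291.8 to 329.6 CPM in LEU. In MET+LEU vs. 2% HS 5 of the 6 fell, against 20.3% of all genes called as lower. Of the 10 myotube markers 2 rose (Des and Mylpf) and 2 fell (Ckm and Myh1) in SD vs. 2% HS, against 13.9% of all genes in each direction. In MET+LEU vs. SD 4 rose (Myh3, Myh1, Tnnt3 and Mb) and 0 fell, against 10.6% called as higher and 7.8% as lower. The choice to name these markers followed a look at their values. The part of these shifts in the values of Ivd, Bcat1 and Dld was not tested.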

How the data were processed

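Total RNA of C2C12 myotubes was sequenced after ribosomal RNA depletion with a stranded kit. The authors deposited raw read counts per gene. The submitters' processing notes name cutadapt 1.16, STAR 2.7.6a, featureCounts 1.6.3, DESeq2 1.30.1 and GRCm38. The strand setting, annotation release and treatment of shared reads are not given in the sources used here. Of 55487 gene identifiers 55227 were matched to GENCODE M21 for symbols, coordinates and exon lengths, and the rest held 0.00434% of counts.

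Groups were taken from the labels, 6 libraries each. The labels do not say that replicates were separate cultures, so p-values measure only the spread between these libraries, which may be technical. Genes were kept by filterByExpr (minimum count 10, minimum total 15). Counts were TMM-scaled and fitted with edgeR 4.0.16 in R 4.3.3, with a robust quasi-likelihood F test on 1 model of all 30 libraries. Adjusted p-values are Benjamini-Hochberg values over 15907 genes, with a threshold of 0.05. The SE of an edgeR value is the size of the log2 fold change divided by the square root of its F statistic. Intervals are the log2 fold change ± 1.96 SE, a normal multiplier, so they can be narrower than the test. Bckdk in LEU vs. 2% HS had an interval of -0.230 to -0.0030 with an unadjusted p of 0.0501 by edgeR. TPM and RPKM were computed from the counts and the union of exons. Alternatives were DESeq2 1.42.0 (Wald test or size factors), upper-quartile scaling, another filter, a fit of only the groups compared, a replicate block, leaving out each library, and, chosen after seeing the data, an offset for GC content of the longest transcript. The code was tested on simulated counts.

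All 10 members were named. From the other lists, the genes named were those past the threshold in SD vs. 2% HS or MET+LEU vs. SD, at most the 4 with the smallest adjusted p per list and comparison, plus Ppm1k, Slc25a44 and Klf15. Members and lists were chosen with earlier results of these data known. A list of further steps is not reported here.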

Additional observations from a re-analysis of the deposited data

Results flagged for a closer look

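In 5 of the 50 sets of 6 libraries (10 genes in 5 groups), 1 library lay far from the others by Dixon's test at the 95% level, which chance gives in about 1 of 20 sets. Dld had 194.1 CPM in MET+LEU replicate 6, where the nearest other library had 170.5 CPM. This was the library with the raised ribosomal RNA share, and the rise of Dld in MET+LEU vs. SD was 0.28 on the log2 scale without it (adjusted p = 3.8e-07 by edgeR). Bcat1 had 19.2 CPM in SD replicate 5 with the nearest at 15.4 CPM, the library on which the Bcat1 call in MET+LEU vs. SD rested. Bcat1 also had 19.4 CPM in 2% HS replicate 1, with the nearest at 16.5 CPM. Dbt had 27.02 CPM in 2% HS replicate 3, with the nearest at 22.96 CPM. Mccc2 had 11.9 CPM in MET replicate 3, with the nearest at 13.1 CPM.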

How the results depend on the processing

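Dld in MET+LEU vs. SD and Ivd in SD vs. 2% HS were called in all 30 fits that left out 1 library and in all 8 other settings. The number of members called in SD vs. 2% HS went from 1 to 2 with upper-quartile scaling and to 2 with the replicate block, which added Mccc1 (adjusted p = 0.0493), and it ranged from 1 to 3 without 1 library. In MET+LEU vs. SD it went from 2 to 1 in a model of only the groups compared and ranged from 1 (without SD replicate 5) to 3 (without MET+LEU replicate 3) without 1 library. In MET+LEU vs. LEU it went from 2 to 1 in a model of only the groups compared, with the GC offset and with the GC offset and block, and ranged from 1 to 2 without 1 library. The MET vs. 2% HS count fell from 3 to 1 with genes kept at more than 5 counts and without 2% HS replicate 1 or MET replicate 2, and the LEU vs. 2% HS count from 5 to 3 without 2% HS replicate 3 or 6 or LEU replicate 2 or 5. The cause was not tested. Same-numbered libraries did not deviate together (mean r = 0.0157 over 60 pairs, 2 over 0.1), so the numbers were not taken as pairs.

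Over all genes, MET vs. SD gave 25 calls, 123 with DESeq2, 52 with the block, 48 with the GC offset, 63 with both, and 4 to 160 without 1 library (MET replicate 4 and MET+LEU replicate 6). LEU vs. SD gave 88, 159 with DESeq2, 197 with only the groups compared, 176 with the GC offset and block, and 43 to 269 without 1 library (LEU replicate 4 and MET+LEU replicate 6). MET+LEU vs. SD gave 2931, and 1422 with only the groups compared. MET+LEU vs. LEU gave 999, 311 with only the groups compared, 581 with the GC offset, and 396 without LEU replicate 3. MET+LEU vs. MET gave 1382, 589 with only the groups compared and 726 without MET+LEU replicate 6. The interaction gave 8, 29 with DESeq2, 17 with the block, 19 with the GC offset and block, 5 with DESeq2 size factors, 4 with upper-quartile scaling, 3 with genes kept at more than 5 counts and 1 with only the groups compared, and 1 to 11 without 1 library (SD replicate 4 and MET replicate 2).

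LEU vs. MET was not recomputed under these settings, and MET vs. 2% HS and LEU vs. 2% HS were compared only for the members called there. In the comparisons recomputed, no called log2 fold change of a member changed sign, and those not called did as follows. In MET+LEU vs. LEU, Bcat1 became -0.0057 with DESeq2 size factors, -0.017 with upper-quartile scaling, -0.0056 with DESeq2, -0.0030 with more than 5 counts, -0.0089 with only the groups compared, -0.027 with the GC offset and -0.029 with the GC offset and block. In the same order Ivd became -0.0062, -0.017, -0.0063, -0.0033, -0.010, -0.0024 and -0.0067, and -0.0021 with the replicate block. Mccc1 became -0.0016, -0.013, -0.00070, -0.0050 (only the groups compared), -0.055 and -0.058. Bcat2 in MET+LEU vs. MET became -0.0028, -0.011, -0.0030, -0.0048 and -0.0023 in the first 5 settings, and 0.0018 in SD vs. 2% HS with more than 5 counts. Bckdha in MET+LEU vs. 2% HS became -0.020 with upper-quartile scaling and -0.00026 with only the groups compared. With the GC offset, and with the block added, MET+LEU vs. SD became 0.0100 and 0.0099 for Bckdha and -0.0103 and -0.0100 for Mccc1.

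Without 1 library the sign changed within these ranges. MET+LEU vs. LEU ran from -0.032 to 0.035 for Bcat1, -0.039 to 0.030 for Ivd and -0.030 to 0.025 for Mccc1. MET+LEU vs. MET ran from -0.043 to 0.043 for Bcat2, -0.072 to 0.022 for Bckdk, -0.056 to 0.015 for Ivd and -0.051 to 0.0085 for Mccc1. MET+LEU vs. 2% HS ran from -0.044 to 0.058 for Bckdha, -0.063 to 0.030 for Dbt and -0.013 to 0.095 for Mccc2. SD vs. 2% HS ran from -0.079 to 0.040 for Bcat2 and -0.11 to 0.22 for Bckdhb. The others were Bcat2 in LEU vs. SD (-0.083 to 0.036), Bckdha in MET vs. SD (-0.0072 to 0.076), Mccc2 in MET+LEU vs. SD (-0.095 to 0.0092), Klf15 in MET+LEU vs. SD (-0.10 to 0.46), and the interaction of Bcat1 (-0.0049 to 0.11) and Bcat2 (-0.042 to 0.080). Depth limits Bckdhb, with 5 to 30 counts per library.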
